A study of Mus musculus with 8 samples.

Results

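The CXC chemokines described here are the 10 genes Cxcl1, Cxcl2, Cxcl3, Cxcl9, Cxcl10, Cxcl12, Cxcl13, Cxcl14, Cxcl16 and Pf4, chosen by name and all present among the 21154 named genes of the array. Gene expression was measured in mouse peritoneal macrophages on 8 single-colour Agilent arrays, in 4 groups of 2. Both lines were 8 weeks old, of either sex, on a 129/C57Bl6 background. The Fra-1 control group was wild-type Fra-1lox/lox and the Fra-1 knockout group Fra-1lox/lox MxCre-/+; Fra-1 (gene Fosl1) is an AP-1 transcription factor, and the Mx promoter that drives this Cre responds to interferon. Whether and how Mx Cre was induced is not given in the sources used here, so a remaining effect of induction on interferon-responsive genes such as Cxcl9 and Cxcl10 was not tested. The Fra-2 control group was wild-type Fra-2lox/lox and the Fra-2 knockout group Fra-2lox/lox LysMCre-/+; Fra-2 (gene Fosl2) is another AP-1 factor, and LysM Cre is active in myeloid cells. Controls were littermates. After a night in culture, non-adherent cells had been removed. Only the 4 samples of the Fra-1 line were labelled as elicited with thioglycollate, an irritant that draws new macrophages into the cavity, so mouse line, elicitation and preparation cannot be told apart. The labels do not state that the 2 arrays of a group came from separate animals, and the p-values measure the spread between these samples only.

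Signals are given as normalized log2 signal, the log2 of the processed intensity minus the log2 of that array's 75th percentile, so that 0 is the 75th percentile of the array. Differences are differences of group means on this scale. A feature is 1 gene or unnamed transcript, and was called when limma's adjusted p was below 0.05. Between 47.7% and 57.6% of the spots of an array were well above background, and 23118 features entered the fit. Macrophage markers were present: 11 or 12 of 12 were well above background on both arrays of every group. Their levels differed between the lines: 7 were lower and 2 higher in Fra-1 than in Fra-2 controls (median log2 difference -1.09). Among all features, 17.8% were called lower and 18.1% higher there. Marco, a scavenger receptor, was at -6.76 and Cd14 at -3.94. Their summed signal was 1263 and 1628 in Fra-1 and 2441 and 3302 in Fra-2 controls, and their part in the chemokine differences was not tested. Fosl1 checked the Fra-1 labels: it was above background on both Fra-1 control arrays (-2.73 and -1.97) and below it on both Fra-1 knockout arrays, at least 3.91-fold lower (adjusted p = 0.359, limma). Fosl2 did not settle the Fra-2 labels. Its brighter probe read 5.51 and 5.57 on the Fra-2 control arrays and 6.43 and 7.14 on the arrays labelled Fra-2 knockout, while its dimmer probe read -2.59 and -2.64 against -3.96 (below background) and -3.82. Whether either probe lies in the deleted part is not known here, so the samples are called the arrays labelled Fra-2 knockout.

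CXC chemokines are small secreted proteins named for a pair of cysteines separated by another residue. Cxcl1, Cxcl2 and Cxcl3 attract neutrophils through the receptor Cxcr2, and macrophages make them after NF-kappaB activation. Cxcl9 and Cxcl10 are induced by interferon and attract T cells through Cxcr3. Cxcl12 acts through Cxcr4 and is mostly made by stromal cells, Cxcl13 draws B cells through Cxcr5, Cxcl16 is a membrane-bound ligand of Cxcr6, Pf4 is stored in platelet granules and is also made by macrophages, and Cxcl14 is found in many epithelia.

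The promoters of the neutrophil-attracting group and of Cxcl10 are shown because they hold matches to motifs of inducible factors. The 250 bases before the gene start were taken from RefSeq, build GRCm38.p6, for 9 of the 10 members, and both strands were searched for AP-1 (TGANTCA), the kappaB consensus, the interferon-stimulated response element, ISRE, and a TATA box (TATAAA). Capitals mark the AP-1, kappaB and ISRE matches. The Cxcl1 window is chr5:90890995-90891244 (+ strand), that of Cxcl2 chr5:90903649-90903898 (+), that of Cxcl3 chr5:90785851-90786100 (+) and that of Cxcl10 chr5:92348890-92349139 (- strand).
Cxcl1: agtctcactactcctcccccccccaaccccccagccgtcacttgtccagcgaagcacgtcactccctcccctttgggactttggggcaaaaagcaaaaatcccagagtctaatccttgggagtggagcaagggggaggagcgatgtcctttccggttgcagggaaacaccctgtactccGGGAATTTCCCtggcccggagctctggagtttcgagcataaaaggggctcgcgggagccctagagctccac
Cxcl2: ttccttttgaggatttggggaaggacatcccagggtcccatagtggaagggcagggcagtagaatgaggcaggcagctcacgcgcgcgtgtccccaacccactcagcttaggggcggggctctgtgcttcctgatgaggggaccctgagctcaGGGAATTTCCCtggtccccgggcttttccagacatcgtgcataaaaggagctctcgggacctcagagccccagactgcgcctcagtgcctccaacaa
Cxcl3: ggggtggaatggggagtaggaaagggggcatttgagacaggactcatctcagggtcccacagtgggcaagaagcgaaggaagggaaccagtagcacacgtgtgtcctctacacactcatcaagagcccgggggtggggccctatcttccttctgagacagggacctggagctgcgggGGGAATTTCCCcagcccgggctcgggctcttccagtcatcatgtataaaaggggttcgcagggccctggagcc
Cxcl10: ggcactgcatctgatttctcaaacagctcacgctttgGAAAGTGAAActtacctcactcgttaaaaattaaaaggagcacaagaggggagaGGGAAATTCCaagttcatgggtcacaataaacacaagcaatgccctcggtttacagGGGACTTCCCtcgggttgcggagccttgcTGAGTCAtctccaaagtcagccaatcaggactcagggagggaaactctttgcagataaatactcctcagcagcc
Cxcl1, Cxcl2 and Cxcl3 held the same 2 overlapping kappaB matches, GGGAATTTCC and GGAATTTCCC, which begin 71, 97 and 73 bases before the start. Cxcl10 held an AP-1 match (TGAGTCA), 2 separate kappaB matches (GGGAAATTCC and GGGACTTCCC) and an ISRE (GAAAGTGAAA). Cxcl14 also held an ISRE match, Cxcl3, Cxcl9 and Cxcl13 held a TATA box match, and Cxcl12 and Pf4 had no match to these letters in this window. Among all 32851 windows of this length, 6.75% held the AP-1 letters, 3.90% kappaB, 2.98% ISRE and 12.4% TATA. A match is a description of the sequence and not a measured binding site.

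The chemokines differed most between the lines. Of the 10 members, 6 were lower and 1 (Cxcl12) was higher in Fra-1 control than in Fra-2 control arrays, where 35.8% of all features were called (18.1% higher and 17.8% lower). The members' median difference was -2.20, against -0.03 over all features. Individual arrays of the groups did not overlap for 9 of the 10 members, against 71.9% of all features; 8 were lower (37.3% of features) and 1 higher (34.6%). In these bulk samples fewer cells of a type and less RNA per cell cannot be told apart.

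**Figure D1:**
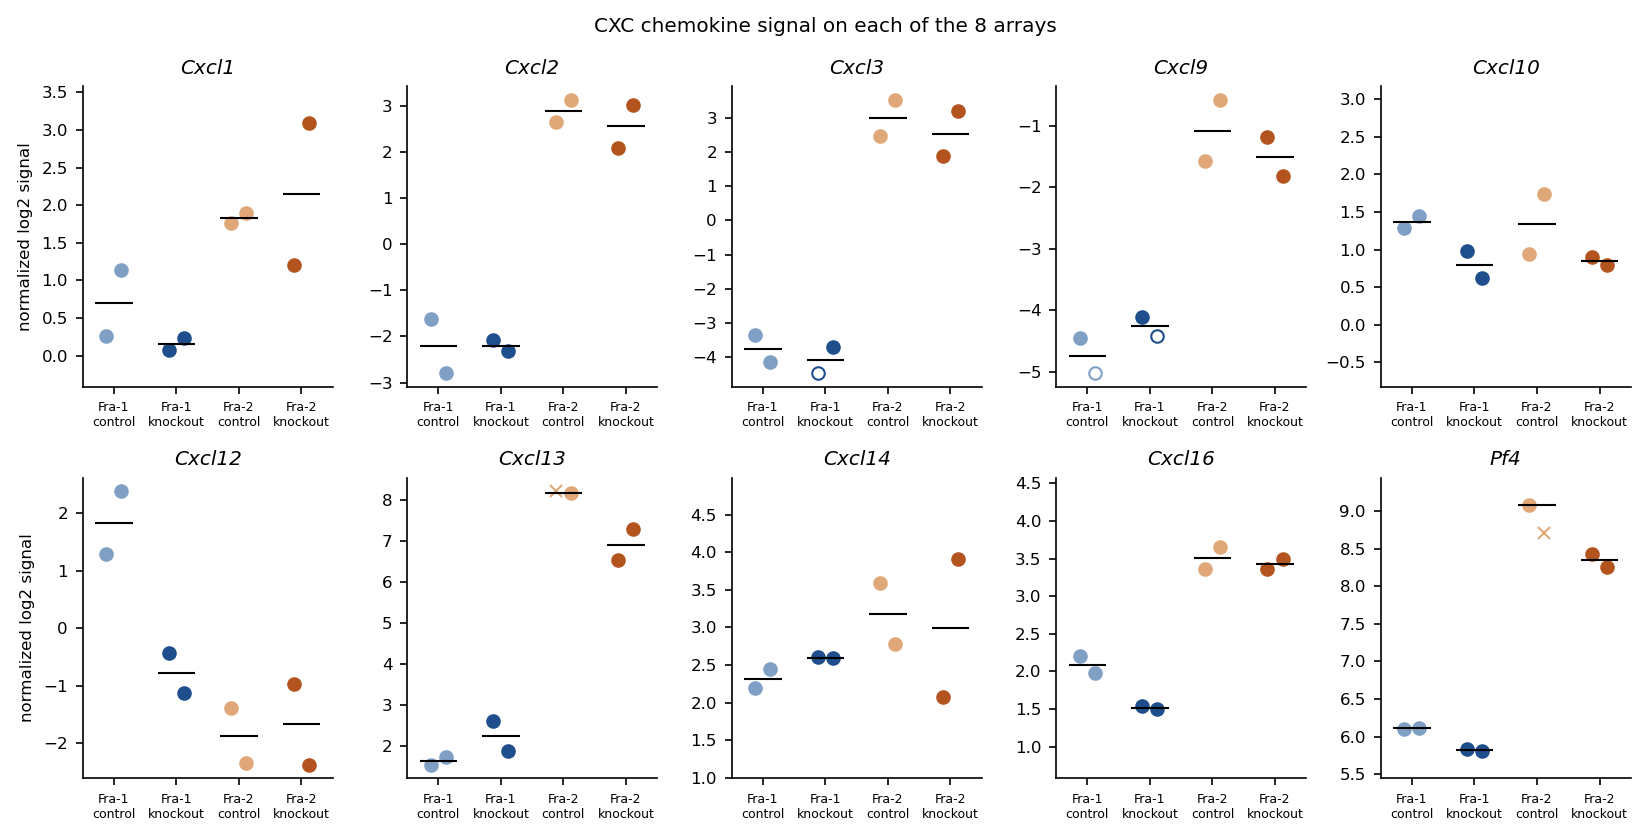
Normalized log2 signal of the 10 CXC chemokines on each of the 8 arrays, 1 panel per gene, with group means as lines; open circles are below background and crosses are spots flagged as outliers and left out of the mean. Cxcl2 and Cxcl3 lie above 1.8 on all Fra-2 line arrays and below -1.6 on all Fra-1 line arrays, whereas Cxcl10 lies between 0.62 and 1.73 on all 8.

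Among the neutrophil attractants, Cxcl3 read 2.48 and 3.53 on the Fra-2 control arrays, 1.87 and 3.20 on the arrays labelled Fra-2 knockout, -3.36 and -4.13 on the Fra-1 control arrays and -4.46 (below background) and -3.69 on the Fra-1 knockout arrays. Every Fra-2 line array was far above every Fra-1 line array. Cxcl3 was 107-fold lower in Fra-1 than in Fra-2 controls (log2 difference -6.74, 95% interval -8.19 to -5.30, adjusted p = 7.03e-04, limma). With normexp background correction the difference was -4.92, still called.

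Cxcl2 read 2.64 and 3.13 in Fra-2 controls, 2.08 and 3.02 on the arrays labelled Fra-2 knockout, -1.63 and -2.80 in Fra-1 controls and -2.08 and -2.31 in Fra-1 knockouts. The lines again did not overlap, and Cxcl2 was 34.3-fold lower in Fra-1 than in Fra-2 controls (log2 difference -5.10, interval -6.25 to -3.95, adjusted p = 8.23e-04). Cxcl1 read 1.77 and 1.90 in Fra-2 controls, 1.21 and 3.10 on the arrays labelled Fra-2 knockout, 0.26 and 1.14 in Fra-1 controls and 0.07 and 0.23 in Fra-1 knockouts. Its arrays were ordered in the same way but lay closer together, and the control difference of -1.14 (interval -2.64 to 0.37) was not called, adjusted p = 0.201. Averaged over both genotypes of each line, Cxcl1 differed by -1.57 and was called (adjusted p = 0.0247; 53.6% of all features were called in that comparison). The same average lowered the difference of Cxcl12 to 2.30 (4.91-fold) and that of Cxcl13 to 48.5-fold, both still called. The promoters shown above share their kappaB letters among these 3 genes. Cxcl1, Cxcl2 and Cxcl3 are related in sequence, and cross-hybridisation of their probes was not tested.

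Of the interferon-inducible pair, Cxcl9 read -1.58 and -0.57 in Fra-2 controls, -1.18 and -1.82 on the arrays labelled Fra-2 knockout, -4.45 and -5.02 (below background) in Fra-1 controls and -4.10 and -4.41 (below background) in Fra-1 knockouts. All Fra-1 line arrays were lower, and some were not above background. The fitted control difference was -3.66 (interval -4.65 to -2.67, adjusted p = 0.00148) and includes background in 1 of the 2 Fra-1 control arrays; with normexp background correction it was -1.84, still called. A second Cxcl9 probe was below background on both Fra-1 control arrays and at least 16.2-fold lower there than in Fra-2 controls.

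Cxcl10 read 0.94 and 1.73 in Fra-2 controls, 0.90 and 0.80 on the arrays labelled Fra-2 knockout, 1.28 and 1.45 in Fra-1 controls and 0.97 and 0.62 in Fra-1 knockouts. The control groups overlapped, and their difference was 0.03 (interval -0.65 to 0.71, adjusted p = 0.942, limma). The interval leaves room for a difference of that size in either direction. Cxcl10 was the only member whose control arrays overlapped. Its promoter holds kappaB, AP-1 and ISRE letters, and their part in its readings was not tested.

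Cxcl12 went the other way from the other called members. It read 1.29 and 2.38 in Fra-1 controls, -0.43 and -1.12 in Fra-1 knockouts, -1.39 and -2.34 in Fra-2 controls and -0.97 and -2.37 on the arrays labelled Fra-2 knockout. It was 13.0-fold higher in Fra-1 than in Fra-2 controls (log2 difference 3.70, interval 2.17 to 5.22, adjusted p = 0.00652). A second Cxcl12 probe gave 3.14 (adjusted p = 0.0201, over all probes). Stromal markers were also higher. Of 14 fibroblast markers tested, 12 were higher and 1 was lower in Fra-1 controls, with a median difference of 5.12. Col1a1 differed by 6.27, Col1a2 by 6.29 and Col3a1 by 5.89. Lum, Pdgfra, Fbln1 and Mfap5 were below background throughout the Fra-2 line. They passed the filter only through the Fra-1 line, which favours a higher value there. The summed fibroblast signal, on a linear scale relative to the 75th percentile, was 281 and 392 in Fra-1 controls and 107 to 163 in Fra-1 knockouts. On the Fra-2 line arrays it was 6.62 to 11.8. Sparc, the brightest of the list (7.31 and 7.74 in Fra-1 controls), weighed most in this sum. Dpt was below background on all arrays. The part of these markers in the Cxcl12 result was not tested.

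Cxcl13 was measured on 1 of the Fra-2 control arrays at 8.18; the spot of the other array was flagged as an outlier and left out, and it read 8.22. It read 6.54 and 7.29 on the arrays labelled Fra-2 knockout, 1.55 and 1.74 in Fra-1 controls and 2.61 and 1.89 in Fra-1 knockouts. It was 92.7-fold lower in Fra-1 than in Fra-2 controls (log2 difference -6.53, interval -7.64 to -5.42, adjusted p = 6.40e-04, fitted on 7 arrays). Markers of B cells, which respond to Cxcl13, and of large resident peritoneal macrophages were also lower in Fra-1 controls. All 7 tested B cell markers were lower, with a median of -4.74. The list's summed signals were 1.91 to 6.62 on Fra-1 line and 46.0 to 91.0 on Fra-2 line arrays. Cd79a, Pax5 and Blk were below background throughout the Fra-1 line. Cd79a and Blk, both tested, passed the filter only through the Fra-2 line, so a call could only be lower. The median includes their background readings. Of 12 large resident macrophage markers, 10 were lower and none was higher, with a median of -4.37 and summed signals of 21.98 to 24.0 against 343 to 632. Timd4, the phagocytic receptor Tim-4, was below background on all Fra-1 line arrays and passed the filter only through the Fra-2 line. Gata6 differed less, averaging 1.31 in Fra-1 and 1.78 in Fra-2 controls. Rarb went the other way, at -0.28 and -0.81. The part of these marker lists in the Cxcl13 result was not tested.

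Pf4 read 9.08 on 1 Fra-2 control array, with the flagged spot of the other at 8.70. It read 8.43 and 8.26 on the arrays labelled Fra-2 knockout, 6.11 and 6.11 in Fra-1 controls and 5.83 and 5.81 in Fra-1 knockouts. It was 7.85-fold lower in Fra-1 than in Fra-2 controls (log2 difference -2.97, interval -3.37 to -2.58, adjusted p = 3.63e-04, 7 arrays). The platelet genes Gp5 and Gp9 were below background on all arrays, and Itga2b, Gp1ba and Ppbp on all Fra-1 line arrays. Itga2b, Gp1ba and Ppbp thus passed the filter only through the Fra-2 line, which favours a lower value in Fra-1 controls. Of 8 platelet and megakaryocyte markers tested, 4 were lower, as Pf4 was, and 1 (the integrin Itgb3, 3.68) was higher in Fra-1 controls, with a median of -1.18. Among those lower, Ppbp was at least 51.3-fold, Gp1ba at least 6.81-fold and Gp6 at least 5.20-fold lower. The summed signal of the list ran the other way, 11.6 to 13.4 on the Fra-1 line and 4.22 to 8.11 on the Fra-2 line arrays. Their part in the Pf4 result was not tested.

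Cxcl16 read 3.36 and 3.66 in Fra-2 controls, 3.37 and 3.49 on the arrays labelled Fra-2 knockout, 2.20 and 1.98 in Fra-1 controls and 1.54 and 1.496 in Fra-1 knockouts. It was 2.68-fold lower in Fra-1 than in Fra-2 controls (log2 difference -1.42, interval -1.80 to -1.05, adjusted p = 0.00134). Its difference was smaller than for the other called members, and the arrays of each group lay close together. Cxcl14 read 3.59 and 2.77 in Fra-2 controls, 2.08 and 3.91 on the arrays labelled Fra-2 knockout, 2.19 and 2.45 in Fra-1 controls and 2.61 and 2.59 in Fra-1 knockouts. Its control difference of -0.86 (interval -2.32 to 0.59) was not called.

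The arrays lay on 2 slides, of which slide 1 held both Fra-1 controls and 1 Fra-2 control. Within slide 1 the control differences of the called members were -6.22 for Cxcl3, -4.85 for Cxcl2, -3.16 for Cxcl9, -2.97 for Pf4, -1.27 for Cxcl16 and 3.22 for Cxcl12. Cxcl13 has no value there because of its outlier spot. The Pf4 value is that of the main fit, because its only measured Fra-2 control array lies on slide 1, so it does not check the slide. With slide as a term in the fit, 7 members were called.

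**Figure D2:**
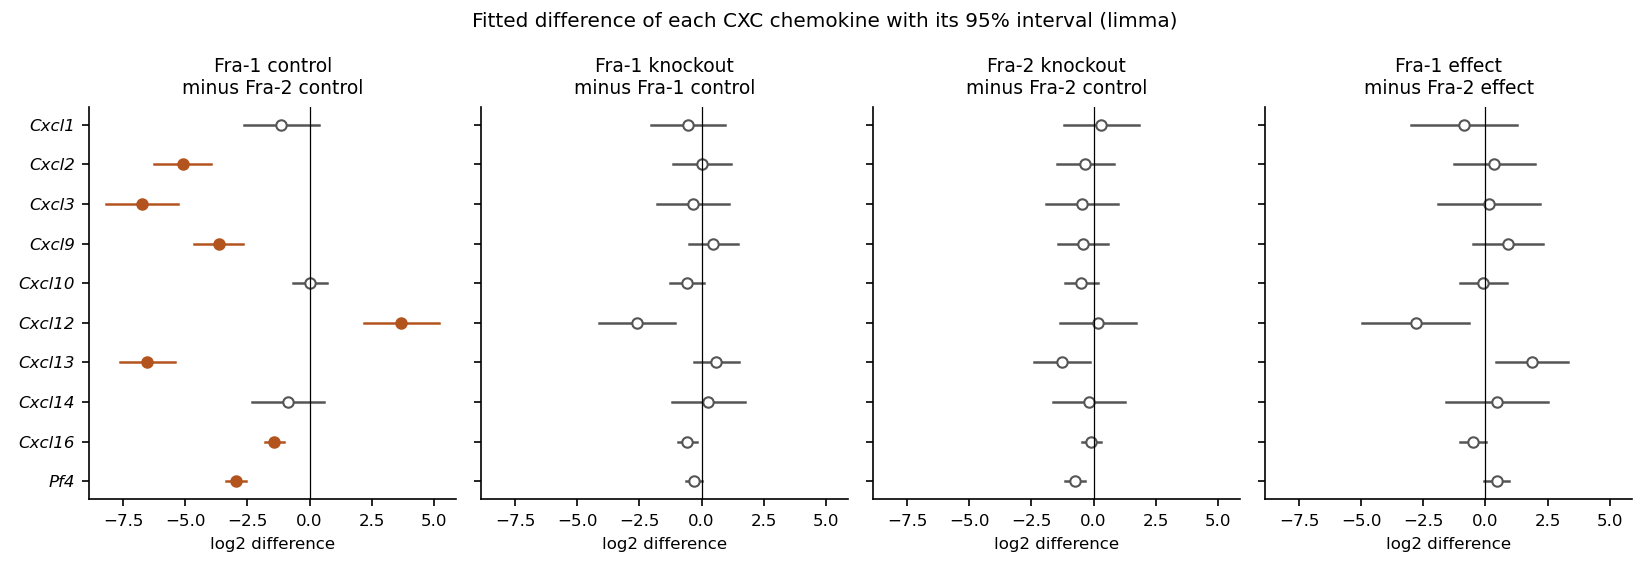
Fitted log2 differences of the 10 CXC chemokines with 95% intervals in 4 comparisons; filled orange points passed the threshold and open grey points did not. Members pass the threshold between the control groups only, with Cxcl3 at -6.74 and Cxcl12 at 3.70.

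In the Fra-1 comparison, none of the 10 members was called, where 0.013% of all features were (3 features; 2 members and 8.83% of features had an unadjusted p below 0.05). The members' median difference, knockout minus control, was -0.31 against 0.03 over all features. Groups did not overlap for 8 of 10 members, against 46.6% of features; 5 were lower (19.0% of features) and 3 higher (27.5%). Cxcl12 had the largest fitted change. Both Fra-1 knockout arrays were below both controls, 6.10-fold on average (log2 difference -2.61, interval -4.13 to -1.08, adjusted p = 0.339). Within slide 1, which held both controls and 1 knockout array, the difference was -2.26. The second probe gave -2.23 (interval -4.01 to -0.46). All 14 fibroblast markers tested also had negative differences, with a median of -1.31, and none was called. Lum, Fbln1 and Mfap5 passed the filter only through the Fra-1 controls, which favours a negative difference for them. Across the 4 arrays of this line, Cxcl12 and the summed fibroblast signal, in which Sparc weighed most, had the same order. Across the 4 Fra-2 line arrays the order differed. Ranked by rising sum (6.62, 10.3, 10.9 and 11.8), those arrays read -1.39, -0.97, -2.37 and -2.34 for Cxcl12. The part of the fibroblast markers in the Cxcl12 value was not tested.

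**Figure D3:**
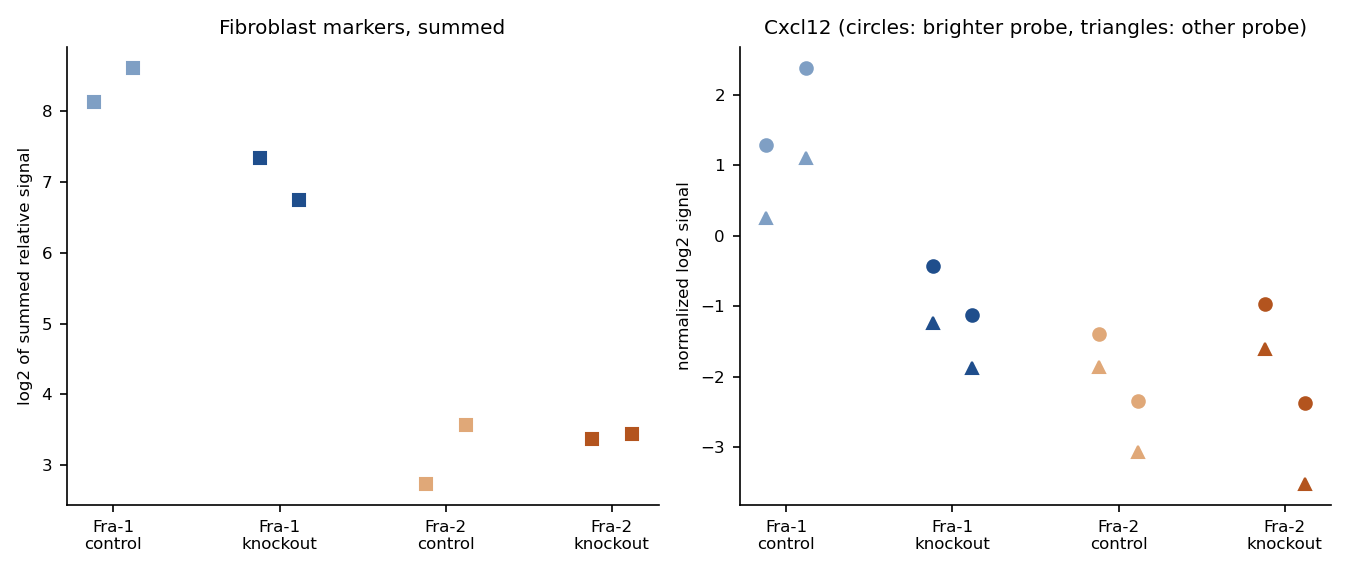
Left, log2 of the summed relative signal of 15 fibroblast markers; right, normalized log2 signal of the 2 Cxcl12 probes (circles, brighter probe; triangles, other probe), per array. Both are highest in the Fra-1 controls, where the summed signal is 281 and 392, and lower in the Fra-1 knockouts. Sparc, the brightest marker, weighs most in the sum.

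Cxcl16 was lower on both Fra-1 knockout arrays, by -0.57 (interval -0.95 to -0.20, adjusted p = 0.390). Cxcl10 differed by -0.57 (interval -1.25 to 0.11) and Cxcl1 by -0.55 (interval -2.05 to 0.96). Cxcl2 differed by 0.02 (interval -1.13 to 1.17) and Cxcl3 by -0.33 (interval -1.78 to 1.12). These intervals leave room for changes of more than 2-fold in either direction for Cxcl2 and Cxcl3. Cxcl13 differed by 0.60 (interval -0.31 to 1.503), Cxcl14 by 0.28 (interval -1.18 to 1.73) and Pf4 by -0.29 (interval -0.61 to 0.04). The Cxcl9 probes differed: the one that stands for the gene gave 0.48 (interval -0.51 to 1.47), and the other was above background on 1 knockout array only (-3.35), so no size is given for it (adjusted p = 0.390).

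In the comparison of the arrays labelled Fra-2 knockout with Fra-2 controls, none of the 10 members was called by limma, as was the case for 0.0% of features. An unadjusted p below 0.05 was found for 2 members and for 2036 features (8.81%). The median difference of the members was -0.38 against -0.03. Groups did not overlap for 3 members (Cxcl10, Cxcl13 and Pf4, all lower), against 35.3% of features in either direction and 20.4% lower. Cxcl13 was lower by -1.27 (interval -2.38 to -0.16, adjusted p = 0.504), and Pf4 by -0.74 (interval -1.14 to -0.34, adjusted p = 0.279), each against 1 measured control array. Cxcl10 differed by -0.49 (interval -1.17 to 0.19). The remaining 7 members had overlapping arrays, with Cxcl1 at 0.32 (interval -1.18 to 1.82) and Cxcl14 at -0.19 (interval -1.64 to 1.27). Within slides 1 and 2, Cxcl1 differed by -0.56 and 1.199 and Cxcl14 by -1.51 and 1.14. Pf4 differed by -0.65 within slide 1 and Cxcl13 by -0.90 within slide 2. For Cxcl1 and Cxcl14 the 2 arrays labelled Fra-2 knockout lay on either side of the controls.

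The Fra-1 and Fra-2 effects were compared directly. None of the 10 members was called, against 0.00433% of features; 2 members and 9.54% of features had an unadjusted p below 0.05. The largest differences between the effects were -2.80 for Cxcl12 (interval -4.96 to -0.64, adjusted p = 0.415) and 1.87 for Cxcl13 (interval 0.43 to 3.30, adjusted p = 0.419).

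The receptors and other ligands were also set against the control comparison, where 35.8% of all features were called. Ackr3, an atypical receptor that takes up Cxcl12, read 1.44 and 1.15 in Fra-2 controls and was below background on all Fra-1 line arrays, at least 71.1-fold lower (adjusted p = 6.96e-04). Cxcr1, a neutrophil receptor, was above background only on the Fra-1 line arrays (-1.59 and -1.32 in controls), at least 8.80-fold higher. Cxcr5, the Cxcl13 receptor of B cells, differed by -4.66 and Cxcr6, the Cxcl16 receptor, by -2.21. Of the 7 receptors tested, 1 was higher and 3 were lower. Cxcr2, Cxcr3 and Cxcr4 were not called. Ackr3 passed the filter only through the Fra-2 line and Cxcr1 only through the Fra-1 line. A call could therefore only be lower for Ackr3 and only higher for Cxcr1. Of the other ligands, Ppbp, a platelet chemokine, was at least 51.3-fold lower in Fra-1 controls. Ppbp passed the filter only through the Fra-2 line, so a call could only be lower. Cxcl5 was not called (1.08), and Cxcl15 and Cxcl17 were below background on all 8 arrays. No probe was matched to Cxcl11.

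NF-kappaB and interferon are tied above to Cxcl1, Cxcl2, Cxcl3, Cxcl9 and Cxcl10, of which Cxcl1 and Cxcl10 were not called between controls. Most called genes of the NF-kappaB and interferon lists were lower in the Fra-1 controls. Among all features, 17.8% were called lower and 18.1% higher there. Of 15 NF-kappaB factors and feedback genes, 10 were lower and 1 higher (median -1.38), among them the inhibitors Nfkbie (-3.26) and Nfkbia (-2.26) and the subunits Relb (-2.54) and Nfkb2 (-2.28). Of 14 inflammatory NF-kappaB targets, 9 were lower and 1 higher (median -2.49), with the cytokines Il1b at -9.80 and Il6 at -5.79. Of 22 interferon response genes, 13 were lower and 1 higher (median -0.72): the GTPases Gbp5 (-5.44) and Gbp2 (-3.60) were lower and the antiviral gene Rsad2 (2.49) was higher. In both knockout comparisons none of these 3 lists had a called gene. The part of these lists in the chemokine differences was not tested. Of 12 chemokine processing enzymes, 3 were higher and 3 lower between controls, with the metalloprotease Mmp12 at 2.93 and Mmp9 at -3.03. Pcsk6, a convertase, was called lower in the Fra-1 comparison (adjusted p = 0.0312, limma). It was dim in Fra-1 controls (-4.47 and -4.50) and below background on all other arrays, so no size is given. It passed the filter only through the Fra-1 controls, so a call could only be in the lower direction.

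**Figure D4:**
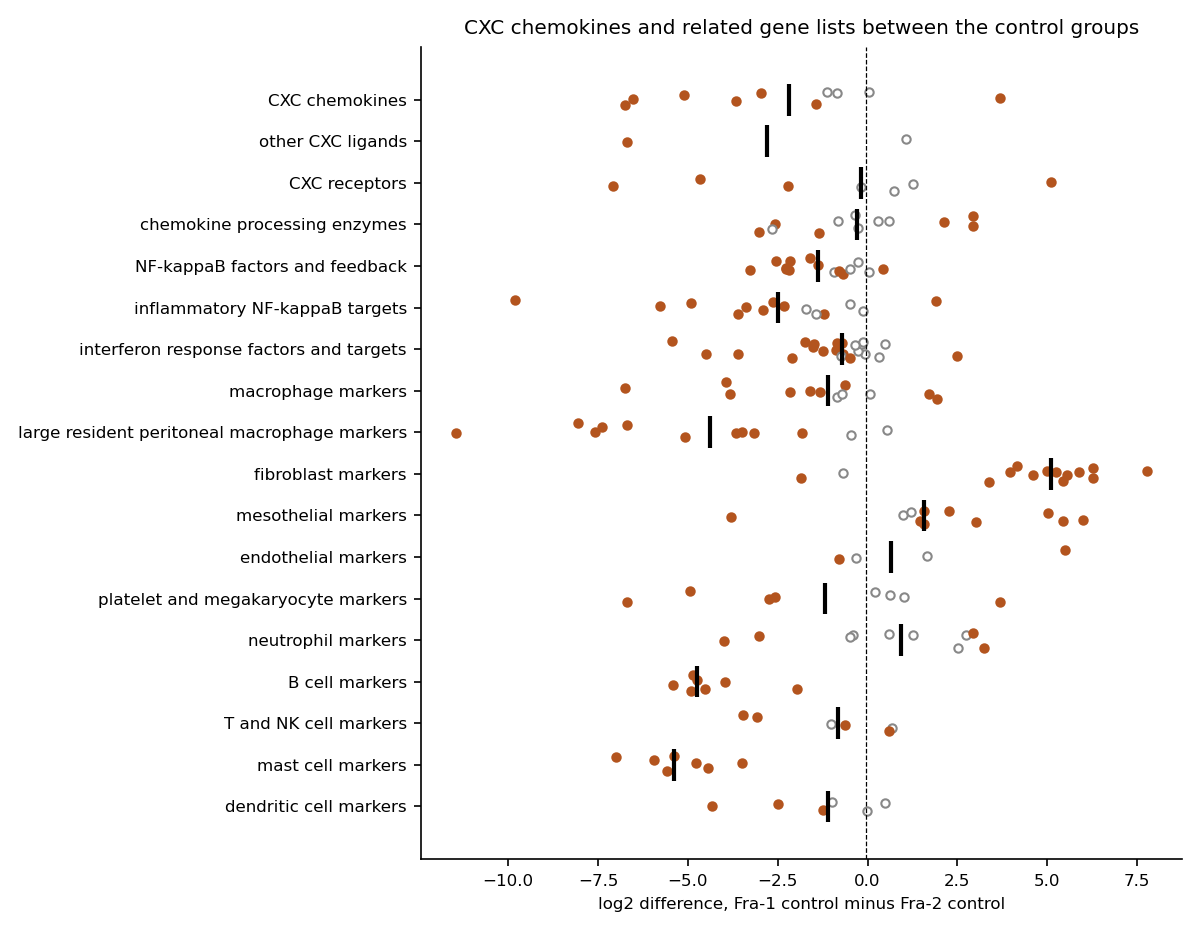
Log2 differences, Fra-1 control minus Fra-2 control, of the CXC chemokines and the other gene lists; filled points passed the threshold, bars are list medians and the dashed line is the median of all features. The CXC chemokine median is -2.20 and the fibroblast marker median 5.12.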

How the data were processed

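The authors' deposited scanner files give a background-subtracted processed intensity per spot on a linear scale, with flags for background, outliers and saturation, and per the file headers Feature Extraction 11.5.1.1 made them. In the series matrix the authors deposited log2 values, centred per probe, whose direction and scale matched the scanner values (r of 0.999 per array); it was used as an alternative. Control spots and 191 to 317 outlier spots per array were left out, spots of a probe were averaged, and log2 intensity was scaled to each array's 75th percentile. Probes had to be well above background on both arrays of at least 1 group. Probes were named by accession through RefSeq (GRCm38.p6; the headers give mm9), and the brightest probe stood for a gene. A limma model of the 4 group means (limma 3.58.1, R 4.3.3) used all 8 arrays, with Benjamini-Hochberg adjustment over all features, and was tested on simulated data. For a named gene below background on both arrays of a group, only a bound is given. List medians and plots use the fitted values, which include background there. A gene above background in only 1 line passed the filter through that line, which favours a lower value in the other. Slide 1 held 5 arrays and slide 2 held 3. The members, gene lists and naming rule (all members, and per list up to 4 called genes or the 2 of smallest p) were chosen with earlier results of these data known. The number of arrays limits precision.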

Additional observations from a re-analysis of the deposited data

Results flagged for a closer look

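The Cxcl13 readings differed in opposite directions in the lines. Both Fra-1 knockout arrays were above both Fra-1 controls, as for 27.5% of all features. The fitted difference was 0.60 (interval -0.31 to 1.503), which includes no change. Both arrays labelled Fra-2 knockout were below the only measured Fra-2 control array (-1.27, interval -2.38 to -0.16). Among all features, 20.4% were lower without overlap in that comparison. The difference between the effects was 1.87 on the log2 scale and did not pass the threshold (adjusted p = 0.419, limma, fitted on 7 arrays).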

How the results depend on the processing

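No paired analysis was possible because the replicate numbers were given in accession order and the titles of the groups share no number. None of the 10 members was called in the knockout comparisons or between the effects under any setting run. Between controls 7 were called, 6 to 8 on leaving out each array (Cxcl1 was called too without either array labelled Fra-2 knockout, and Cxcl13 or Pf4 could not be tested without its only measured Fra-2 control), and 3 with a filter on all 8 arrays, which removes Cxcl3, Cxcl9, Cxcl13 and Pf4 (an outlier spot counts there as not above background). With a common floor of -3.85, Cxcl9 was 0.00 in the Fra-1 comparison, since all 4 arrays lie below that floor. The following uncalled values changed sign. In the Fra-1 comparison Cxcl2 was -0.18 with a slide term. Cxcl10 between controls was -0.11 with normexp and -0.011 with both genotypes averaged. Between the effects Cxcl10 was 0.091 with normexp and Cxcl3 -0.39 with a slide term. On leaving out each array, values ran as follows. In the Fra-1 comparison Cxcl2 ran from -0.56 to 0.60 and Cxcl3 from -0.72 to 0.056. In the Fra-2 comparison Cxcl1 ran from -0.63 to 1.27, Cxcl2 from -0.80 to 0.14, Cxcl3 from -1.13 to 0.20, Cxcl9 from -0.93 to 0.077, Cxcl12 from -0.50 to 0.89, Cxcl14 from -1.11 to 0.73 and Cxcl16 from -0.23 to 0.065. Between the effects Cxcl1 ran from -1.81 to 0.081, Cxcl2 from -0.23 to 0.93, Cxcl3 from -0.53 to 0.80, Cxcl10 from -0.48 to 0.31 and Cxcl14 from -0.45 to 1.38. Between controls Cxcl10 ran from -0.37 to 0.43. The cause was not tested. Over all features the calls ranged from 0 to 22 in the Fra-1 comparison (3 as reported), from 0 to 422 in the Fra-2 comparison (0 as reported, 422 without the array labelled Fra-2 knockout 2), from 0 to 239 between the effects (1 as reported) and from 5590 to 8980 between controls. Leaving out an array leaves a lone sample assumed to vary like the other groups. Keeping outlier spots was chosen after seeing the data and left 7 members called between controls.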

Other observations

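Other cell type markers were also compared between the control groups, where 35.8% of all features were called (18.1% higher and 17.8% lower). All 7 mast cell markers tested were lower in Fra-1 controls (median -5.38), with Mcpt4, a mast cell protease, at -7.01. Neutrophil markers were called at about the share of all features, in both directions. Of 10, 2 were higher (Ltf, 3.25, and Elane, 2.93) and 2 lower (Camp, -3.99, and Mmp9, -3.03). Of 11 mesothelial markers, 8 were higher, among them Wt1 (5.43), Lrrn4 (at least 20.9-fold) and Bnc1 (at least 8.03-fold), and Slpi was lower (-3.79). Upk3b, Lrrn4 and Bnc1 were below background throughout the Fra-2 line and passed the filter only through the Fra-1 line. The list's summed signal ran the other way, 51.0 to 118 on Fra-1 line and 554 to 716 on Fra-2 line arrays. Slpi, the brightest of the list, weighed most in this sum.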
